A study of Rattus norvegicus with 144 samples.

Results

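Potassium channel genes were taken as the protein-coding rows of the deposited table whose symbol is Kcn followed by letters and a closing number, which gave 93 genes out of 45785 in the table and 23154 that are protein-coding. They fall into 13 subfamilies, from the voltage-gated pore subunits of Kcna, Kcnb, Kcnc, Kcnd, Kcnh and Kcnq to the inward rectifiers (Kcnj), the two-pore leak channels (Kcnk), the calcium-activated Kcnn and Kcnm genes, the sodium-activated Kcnt genes and the auxiliary subunits. Potassium channels let potassium leave a neuron and so set its resting potential, end its action potentials and limit how often it fires. Voltage-gated members open on depolarisation, inward rectifiers and leak channels hold the membrane near rest, and auxiliary subunits change the gating and the surface delivery of the pore subunits. In cortex, several are known for particular cells: Kcnc1 and Kcnc2 for fast-spiking interneurons, Kcnj10 and Kcnj16 for astrocytes and other glia, and Kcnj8 for the cells that wrap small vessels.

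The libraries were made from total RNA of the anterior cingulate cortex, a medial frontal area, of Long Evans rats of both sexes. Before birth the animals belonged to a pair-fed group (PF), a group on a free-choice liquid diet (FCL) or an ethanol group (PAE), and in adolescence they received water (VEH) or alcohol (AAE). Tissue was taken at postnatal day 42, 24 h after the last adolescent exposure, or at day 90 with nothing further given, so that each of the 24 groups holds 4 to 7 libraries. In all there were 34 adolescent female, 35 adult female, 39 adolescent male and 36 adult male libraries, with 10569296 to 34370169 counts each. The labels name no litter and no animal, so p-values measure the spread between libraries. In bulk tissue, fewer cells of a type and less RNA per cell cannot be told apart. The libraries do not keep strand, and 44 of the 93 members overlap another gene of the table. For some members named below the other gene has the higher median count. Kcnj13 has 53.5 against 1132 for Gigyf2, Kcnv2 1 against 647.5 for Pum3 and Kcnj9 540.5 against 2572 for Igsf8. Kcnk6 has 26.5 against 44.5 for LOC103689966. The part of the other genes in the members' values was not tested.

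Of 12 lists of cell type markers, those of excitatory neurons summed to between 4010 and 9161 CPM, the count scaled to a common library size, per library and those of striatum to between 80.3 and 721. Oligodendrocyte markers ran from 2168 to 24839 CPM, and no marker of the 12 lists was at 0 in every library. 5 libraries stood apart. The library Female_PF_AAE_Adolescent replicate 4 lacked both sex-linked signals, with Xist and the Y genes each under 1 CPM, and Male_PAE_VEH_Adolescent replicate 4 had both, at 379 and 27.1 CPM. Lower mixed signals were left in: Male_PAE_VEH_Adult replicate 2 had 95.9 CPM of Xist beside 155.1 of the Y genes, and without it 12 members passed for age in females and 20 in males, as with it. Female_PF_VEH_Adult replicate 6 had the fewest genes with a count, 15631, and held the lowest value of 39 of the 87 members tested and the highest of 14. Female_FCL_AAE_Adult replicate 1 and Male_PF_VEH_Adolescent replicate 6 carried 2581 and 2949 CPM of olfactory mucosa markers against a range of 4.92 to 82.6 in the other libraries. The former also had 46.3 CPM of the Y genes beside 436 of Xist.

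Potassium channel genes were compared with each other by FPKM, the authors' count scaled to gene length and library size, because only a value per length can be set between genes. Of the 93 members, 65 had a median FPKM of at least 1 over all libraries, 28 had at least 10, and 5 had a median count of 0. The auxiliary subunit Kcnab2 was highest, with a median FPKM of 120.5 and a range of 46.1 to 182.7. Kcnmb4, the neuronal beta subunit of the large-conductance calcium-activated channel, followed with a median FPKM of 78.2 and a range of 27.8 to 116.8. Their ranges overlapped.

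Levels also differed within subfamilies. Kcna2, an axonal delayed rectifier, led the Kcna genes with a median FPKM of 31.7, ahead of Kcna1 at 21.01. Kcnc1 and Kcnc2 of fast-firing neurons were close to each other, at 21.4 and 20.9. Among the Kcnd genes, which carry the transient A-type current, Kcnd3 had 10.2 and Kcnd2 4.75. By median count the order was the reverse, 984 for Kcnd3 and 1462 for Kcnd2, whose listed lengths are 6818 and 21871 bases. Kcnf1, which forms no channel alone and modifies Kcnb channels, led the silent modifiers with 42.7. Kcnh3 led the Kcnh genes with 34.02, Kcnj4 the inward rectifiers with 31.8 and Kcnk2 the leak channels with 10.6. Kcnn2, a small-conductance calcium-activated channel, had 9.27, and the sodium-activated Kcnt1 had 10.4. Some levels depend on the gene model: Kcnma1, the pore of the large-conductance channel, had a median of 5132 counts but an FPKM of 3.59, because its listed length is 101921 bases, and Kcnip4 with 1047 counts and a listed length of 109300 bases had an FPKM of 0.680. By summed FPKM, the auxiliary genes made up a median of 20.7% of all members, the inward rectifiers 14.5% and the silent modifiers 10.4%.

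**Figure D1:**
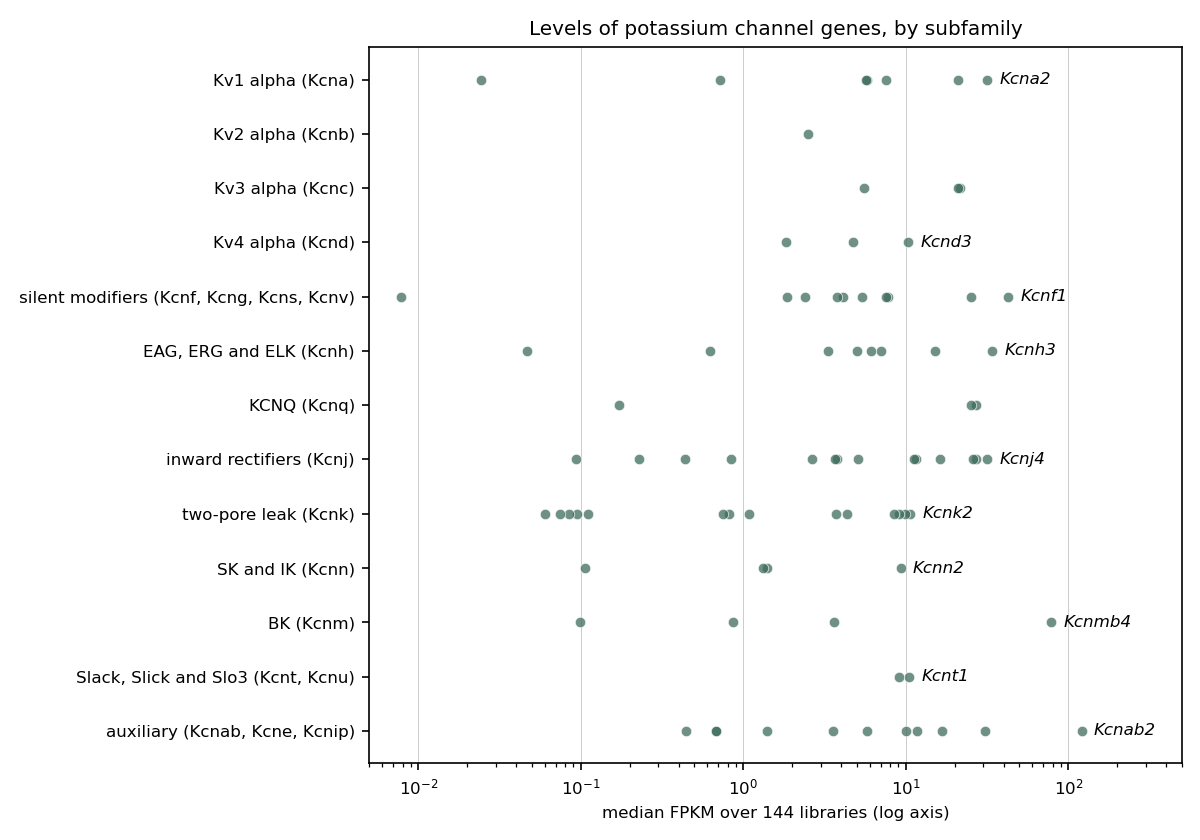
Median FPKM of each potassium channel gene over all libraries on a log axis, 1 point per gene and 1 row per subfamily, with a leading member named in most rows; the 5 members with a median of 0 and members not reported here are not drawn. Kcnab2 and Kcnmb4 are the points farthest right.

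Whether potassium channel genes differ between adolescent and adult cortex was tested in each sex over all 6 treatments with equal weight. All adolescent libraries were taken 24 h after the last exposure and all adult libraries at day 90. Age and time since the last exposure therefore cannot be told apart, and the age effect below stands for both. In females 12 of the 87 members tested passed an adjusted p under 0.05 in edgeR, 7 higher and 5 lower in adults, against 9.02% of all 20137 genes tested. In males 20 of 87 passed, 14 higher and 6 lower, against 13.1% of all genes. The members' shares, 13.8% in females and 22.99% in males, are set beside those percentages as a description only. The median log2 fold change of the 87 members was -0.02 in females and -0.01 in males, and positive values were found for 37 and 43 of them. Single members rose while others fell. 8 members passed in both sexes, each in the same direction in both. Among them Kcnd3, Kcnc1, Kcnab2 and Kcnab3 rose, and Kcnk9 and Kcne5 fell. The 8 were 66.7% of the female calls and 40% of the male calls, and for all genes those shares were 60.2% and 41.6%. The difference between the sexes in the age effect passed for no member: 0 of 87 did, as did 0.0% of all genes, 6 had an unadjusted p under 0.05 against 5.28% of all genes, and DESeq2 called 0. A member called in 1 sex alone is therefore not shown to differ from the other sex.

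The calls depend on the libraries used. With 2 surrogate variables as covariates, 20 members passed in females (9 higher, 11 lower) and 25 in males (12 higher, 13 lower). Without the 5 libraries that stood apart, 13 passed in females (6 higher, 7 lower) and 25 in males (13 higher, 12 lower), and 30 of the 32 calls remained, those lost being Kcnj15 in females and Kcns2 in males. In the control treatments alone, PF and FCL with water, 1 passed in females and 5 in males. Red blood cell markers moved with age as well, 5 of 6 lower in adult females and 6 of 6 in adult males, with sums of 7.73 to 277 CPM in adolescent and 1.78 to 151.96 in adult females and of 8.53 to 498 and 3.69 to 331 in males. Of 6 markers of oligodendrocyte precursors, 2 were lower in adult females and 3 in adult males, with Gpr17 at -0.65 and -0.88 and Enpp6 at -1.03 and -1.12, and their sums ran from 261 to 864 CPM in adolescent and 274 to 633 in adult females and from 325 to 844 and 241 to 633 in males. Of 5 striatal markers, Ppp1r1b was higher in adults of each sex, at 0.26 and 0.33, all 5 had positive values in both sexes, and their sums ran from 86.97 to 266 CPM in adolescent and 80.3 to 448 in adult females and from 86.8 to 212 and 98.3 to 721 in males. The part of these 3 lists in the members' values was not tested.

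**Figure D2:**
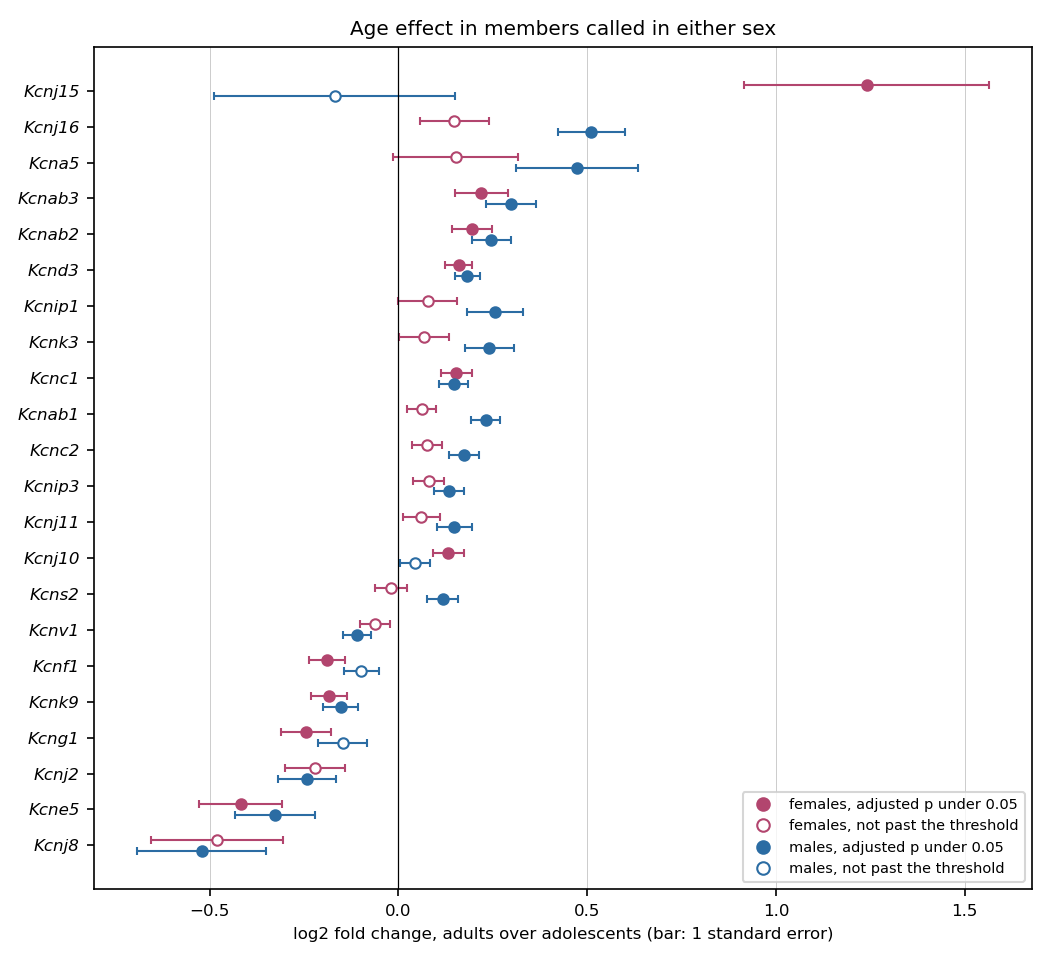
Log2 fold change of adults over adolescents with 1 standard error for 22 members called in either sex, females and males side by side; filled points passed an adjusted p under 0.05. Kcnj15 in females is the point farthest right among them.

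Of the 8 members called in both sexes, 5 have an entry in the RefSeq promoter table of the rat assembly GRCr8, 4 that rose and 1 that fell, and the 250 bases before their start are shown to let the regions of members that moved alike be compared. Capitals mark GC boxes, the letters GGGCGG or CCGCCC, which are searched on both strands. The regions are chr5:168270761-168271010 on the minus strand for Kcnab2, chr10:54546388-54546637 on the plus strand for Kcnab3, chr1:106038997-106039246 on the plus strand for Kcnc1, chr2:195626066-195626315 on the plus strand for Kcnd3 and chrX:110727850-110728099 on the minus strand for Kcne5, each written 5′ to 3′ along its gene.
Kcnab2: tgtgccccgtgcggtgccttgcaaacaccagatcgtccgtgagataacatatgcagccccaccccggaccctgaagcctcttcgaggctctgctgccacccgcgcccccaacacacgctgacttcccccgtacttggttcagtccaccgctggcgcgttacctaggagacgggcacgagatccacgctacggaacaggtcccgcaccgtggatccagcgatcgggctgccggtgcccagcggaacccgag
Kcnab3: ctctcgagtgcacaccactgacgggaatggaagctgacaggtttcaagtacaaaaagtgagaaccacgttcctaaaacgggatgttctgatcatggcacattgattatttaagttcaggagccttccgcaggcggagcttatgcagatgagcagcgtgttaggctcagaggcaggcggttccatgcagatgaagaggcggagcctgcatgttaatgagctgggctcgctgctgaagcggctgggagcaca
Kcnc1: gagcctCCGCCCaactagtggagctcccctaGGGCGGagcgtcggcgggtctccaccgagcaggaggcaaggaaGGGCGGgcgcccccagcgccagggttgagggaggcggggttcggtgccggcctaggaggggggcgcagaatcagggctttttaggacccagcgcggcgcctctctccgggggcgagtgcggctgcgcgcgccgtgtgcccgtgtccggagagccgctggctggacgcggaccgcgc
Kcnd3: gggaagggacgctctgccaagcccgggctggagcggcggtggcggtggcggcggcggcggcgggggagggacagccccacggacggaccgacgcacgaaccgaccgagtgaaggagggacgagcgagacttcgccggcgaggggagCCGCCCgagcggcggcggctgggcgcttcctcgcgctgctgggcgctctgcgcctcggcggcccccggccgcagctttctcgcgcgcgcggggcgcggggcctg
Kcne5: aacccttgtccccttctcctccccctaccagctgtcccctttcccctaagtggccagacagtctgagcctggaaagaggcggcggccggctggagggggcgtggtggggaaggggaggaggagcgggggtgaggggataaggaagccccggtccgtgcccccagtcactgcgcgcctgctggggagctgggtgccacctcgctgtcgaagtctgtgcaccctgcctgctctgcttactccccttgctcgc
The Kcnc1 window holds 3 GC boxes and the Kcnd3 window 1, and the other windows hold 0. Their G and C content was 79.6% for Kcnd3, 74.4% for Kcnc1, 67.6% for Kcne5, 65.2% for Kcnab2 and 52.8% for Kcnab3, against a median of 51.2% over all 33469 promoters of the table. Over the table, 63 members matched with 69 promoters, of which 47.8% held a GC box, while 30.5% of all promoters did. A TATA box, TATAAA or TTTATA, lay in 2.90% of the members' promoters and in 12.9% of all. CACGTG, an E box, lay in 2.90% and 5.59%. The median G and C content was 59.6% in the members' promoters. Of the 14 promoters of members that rose in either sex 5 held a GC box, as did 2 of the 4 of members that fell.

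Kcnq3, a pore subunit of the M-current that dampens repeated firing, did not pass in either sex, at -0.07 ± 0.042 (SE), adjusted p = 0.303 in females and -0.09 ± 0.041 (SE), adjusted p = 0.115 in males. Kcnq5 and Kcnq1, of the same subfamily, passed in neither sex. Without the 5 libraries that stood apart, Kcnq3 passed in males (adjusted p = 0.0387) and Kcnq1 in females (adjusted p = 0.0335).

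Of the 3 Kcnd genes of the A-type current, Kcnd3 (chr2:195626316-195843690, plus strand; GRCr8 coordinates throughout) rose in both sexes. It ran from 56.3 to 82.02 (median 67.6) in adolescent females and from 56.5 to 107.6 (median 74.4) in adult females in CPM. Among males the values ran from 48.4 to 76.2 (median 67.5) in adolescent males and from 55.9 to 88.8 (median 73.2) in adult males. The groups overlapped, with 28 of 35 and 30 of 36 adult libraries above the adolescent median, and the log2 fold change was 0.16 ± 0.035 (SE), adjusted p = 6.61e-04 in females and 0.18 ± 0.034 (SE), adjusted p = 2.22e-05 in males. Kcnd1 and Kcnd2 passed in neither sex. Kcnip genes code for calcium-binding subunits that ride on Kcnd channels. Kcnip1 passed in males at 0.26 ± 0.075 (SE), adjusted p = 0.0113 and had 0.08 ± 0.077 in females (adjusted p = 0.614). Kcnip3, which also binds DNA as the repressor DREAM, passed in males at 0.13 ± 0.040 (SE), adjusted p = 0.0121 and had 0.08 ± 0.041 in females (adjusted p = 0.232). With surrogate variables Kcnip3 passed in females too, at 0.08 with an adjusted p of 0.0278. Kcnip2 and Kcnip4 passed in neither sex. Kcnip2, with a median FPKM of 16.6, went the other way with surrogate variables. There it was lower in adults, at -0.17 (adjusted p = 4.82e-04) in females and -0.11 (adjusted p = 0.0309) in males. With both sexes averaged, as described below, Kcnip2 was lower in adults as well. Kcnip1 shares its locus with Kcnmb1 on the other strand, whose median count was 8 against 345 for Kcnip1.

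Of the 4 Kcnc genes, which allow fast repolarisation, Kcnc1 (chr1:106039247-106081034, plus strand) rose in both sexes and Kcnc2 in males. Kcnc1 ran from 57.7 to 101.5 (median 80.7) in adolescent females and from 47.7 to 118.4 (median 90.97) in adult females in CPM. In males it ran from 60.4 to 104.3 (median 81.6) in adolescent males and from 71.1 to 101.8 (median 91.8) in adult males. In both sexes the groups overlapped, with 30 of 35 and 31 of 36 adult libraries above the adolescent median. The log2 fold change was 0.15 ± 0.040 (SE), adjusted p = 0.0064 in females and 0.15 ± 0.039 (SE), adjusted p = 0.005 in males. Kcnc2 had 0.17 ± 0.039 (SE), adjusted p = 5.13e-04 in males and 0.08 ± 0.040 (SE), adjusted p = 0.247 in females. With surrogate variables Kcnc2 passed in females too, at 0.09 with an adjusted p of 0.0373. Of the 7 inhibitory neuron markers, 3 were higher in adult males (Pvalb, Vip and Lhx6) and 0 passed in females, and their summed level ran from 613 to 877 CPM in adolescent males and from 601 to 957 in adult males. In females the sum ran from 587 to 743 CPM in adolescents and from 561 to 852 in adults. Their part in the Kcnc values was not tested.

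The Kcna pore genes and the Kcnab genes that code for their cytoplasmic beta subunits were described side by side. Of 6 Kcna genes tested, 0 passed in females and 1, Kcna5, in males, while all 3 Kcnab genes passed in males and 2 of them in females. Kcnab2 (chr5:168182228-168270760, minus strand) ran from 357 to 588 (median 480.5) in adolescent females and from 189.99 to 739 (median 551) in adult females in CPM. Among males the values ran from 369.8 to 669 (median 483) in adolescent males and from 416 to 795 (median 579.8) in adult males. The lowest adult female value was that of the library with the fewest genes detected, and 30 of 35 adult female and 31 of 36 adult male libraries lay above the adolescent median. Its log2 fold change was 0.20 ± 0.053 (SE), adjusted p = 0.00873 in females and 0.25 ± 0.051 (SE), adjusted p = 2.19e-04 in males. It overlaps Nphp4 on the other strand, whose median count was 256 against 7195 for Kcnab2.

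Kcnab3 (chr10:54546638-54555209, plus strand) ran from 9.9995 to 27.4 (median 15.9) in adolescent females and from 12.1 to 27.95 (median 19.2) in adult females in CPM. In males it ran from 10.9 to 25.3 (median 15.8) in adolescent males and from 12.05 to 30.98 (median 19.1) in adult males. The age groups overlapped widely, and the log2 fold change was 0.22 ± 0.069 (SE), adjusted p = 0.0264 in females and 0.30 ± 0.067 (SE), adjusted p = 5.50e-04 in males. Leaving out Female_PAE_VEH_Adolescent replicate 5 ended the female call, at 0.19 with an adjusted p of 0.0545. Kcnab1 rose in males, from a median of 86.97 to 99.6 CPM and a log2 fold change of 0.23 ± 0.038 (SE), adjusted p = 1.20e-06, with 33 of 36 adults above the adolescent median. In females Kcnab1 had 0.06 ± 0.039 (SE), adjusted p = 0.364, and among the members it had the smallest p for a difference between the sexes in the age effect, -0.17 ± 0.054 (females minus males, adjusted p = 0.754), followed by Kcnj15 at 1.41 ± 0.45 (adjusted p = 0.754). Kcna5, a low delayed rectifier also known from muscle, had 0.47 ± 0.16 (SE), adjusted p = 0.0349 in males, and its highest adolescent male value, 13.6 CPM, was in a library with olfactory genes. Without Male_PAE_VEH_Adult replicate 3 its call was lost, at 0.45 with an adjusted p of 0.0581, and without the filter on low counts it was lost at 0.47 with an adjusted p of 0.0633. The Kcna5 call was kept without the 5 libraries that stood apart, at 0.64 with an adjusted p of 1.39e-04. It was also kept with surrogate variables, at 0.56 with an adjusted p of 0.00463.

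**Figure D3:**
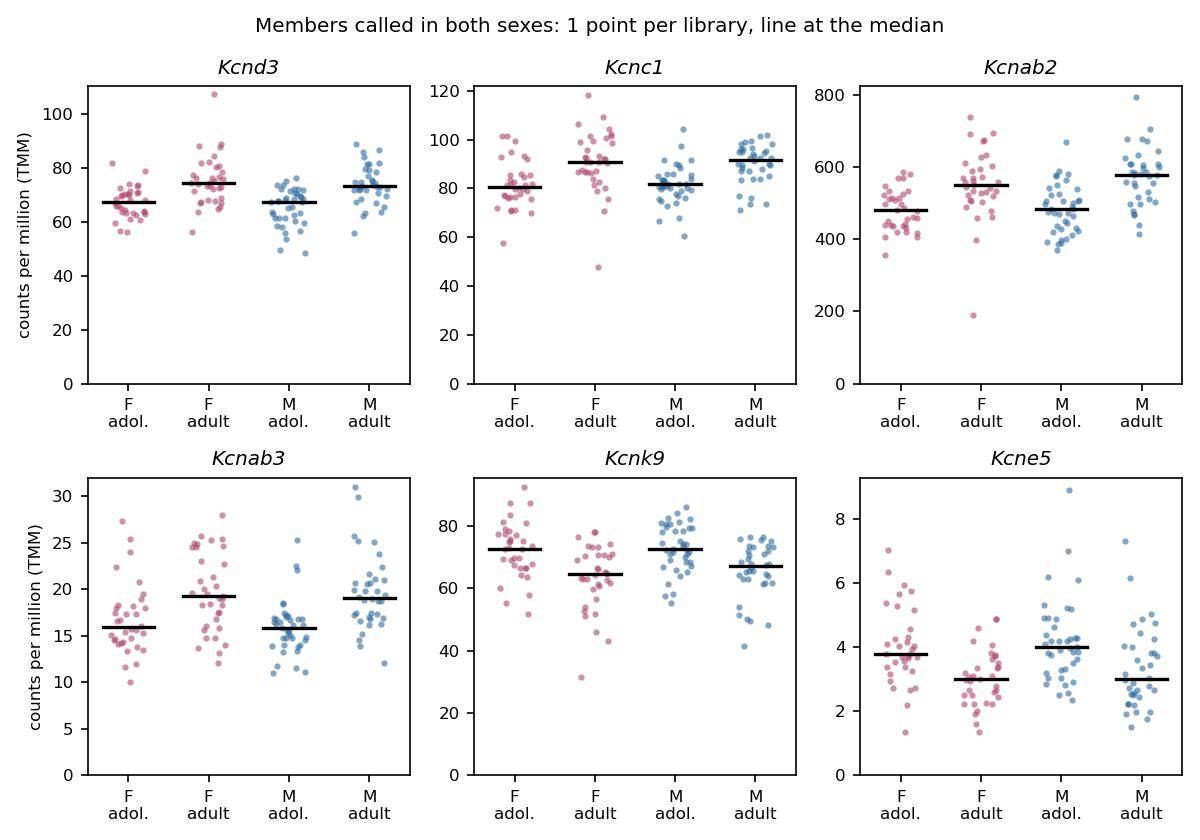
CPM in each library for 6 members called in both sexes, with females in red and males in blue, adolescents beside adults, and a line at each median. The clouds overlap for every member, and the medians of Kcnk9 and Kcne5 are lower in adults while those of the other 4 are higher.

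Silent modifiers, which reach the membrane only together with Kcnb subunits, had 10 of 10 members tested. In females 2 fell and 0 rose, and in males 1 rose and 1 fell. Kcnf1, the most abundant of them, ran from 89.01 to 145.7 (median 120.8) in adolescent females and from 34.4 to 131.9 (median 108.6) in adult females in CPM, with a log2 fold change of -0.19 ± 0.048 (SE), adjusted p = 0.00411. Kcng1 ran from 51.2 to 97.9 (median 72.5) in adolescent females and from 27.98 to 84.1 (median 61.9) in adult females in CPM, with -0.24 ± 0.066 (SE), adjusted p = 0.00872. In males both were also lower in adults without passing, at -0.10 (adjusted p = 0.159) and -0.15 (adjusted p = 0.12). Kcnf1 did pass in males without the 5 libraries that stood apart, at -0.11 with an adjusted p of 0.0242. With surrogate variables it passed at -0.14 with an adjusted p of 0.0148. Of the 7 excitatory neuron markers, Slc17a7 was lower in adult females at -0.18 ± 0.042 (SE, adjusted p = 0.00214) and none was higher, and their sum ran from 6391 to 8676 CPM in adolescent and from 4010 to 8570 in adult females. Their part in the Kcnf1 and Kcng1 values was not tested. Kcnv1 fell in males at -0.11 ± 0.038 (SE), adjusted p = 0.0384, a call that was lost in 7 of 24 fits that left out 1 library and without the filter on low counts. Kcns2 had 0.12 ± 0.042 (SE), adjusted p = 0.0452 in males, and this call was lost in DESeq2, with RLE scaling, without the filter, with surrogate variables and without the 5 libraries. Of the 8 Kcnh genes tested, 0 passed in either sex. Kcnh7 passed in males without the 5 libraries (adjusted p = 0.0375) and with surrogate variables (adjusted p = 0.027).

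Among 14 inward rectifiers tested, 2 rose and 0 fell in females, and 2 rose and 2 fell in males. Kcnj10, the chief potassium channel of astrocytes, ran from 203 to 336 (median 252) in adolescent females and from 213 to 345 (median 281) in adult females in CPM, and 29 of 35 adult libraries lay above the adolescent median. Its log2 fold change was 0.13 ± 0.041 (SE), adjusted p = 0.0253 in females and 0.04 ± 0.040 (SE), adjusted p = 0.53 in males. Leaving out Female_PAE_VEH_Adolescent replicate 3 ended the female call, at 0.12 with an adjusted p of 0.0511. Kcnj16, whose product joins that of Kcnj10 in mixed channels, ran from 4.69 to 16.5 (median 8.13) in adolescent males and from 5.74 to 19.5 (median 11.8) in adult males in CPM. In females it ran from 5.70 to 27.5 (median 11.1) in adolescent females and from 7.42 to 18.1 (median 11.7) in adult females. Adolescent males were the low group, and 34 of 36 adult males lay above their median. The log2 fold change of Kcnj16 was 0.51 ± 0.088 (SE), adjusted p = 4.80e-06 in males, a rise of 42.5%, and 0.15 ± 0.091 (SE), adjusted p = 0.346 in females. The difference between the sexes, -0.36 ± 0.13, did not pass (adjusted p = 0.866).

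Of the 8 astrocyte markers, 1, Aldoc, was higher in adults in each sex and none was lower, and their sum ran from 7193 to 10670 CPM in adolescent and from 7740 to 12172 in adult females. In males the sum ran from 6081 to 11391 CPM in adolescents and from 7457 to 12201 in adults. Of the 8 oligodendrocyte markers, 1 was lower in adult females and 6 in adult males, with sums from 2507 to 20567 and from 2742 to 12528 CPM in adolescent and adult females, and from 3104 to 24839 and from 2168 to 17032 in males. Their part in the Kcnj10 and Kcnj16 values was not tested.

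Kcnj2, a strong inward rectifier, lies 39479 bases from Kcnj16 on chromosome 10 and went the other way. It ran from 12.5 to 44.6 (median 22.1) in adolescent males and from 11.4 to 28.3 (median 18.9) in adult males in CPM, with a log2 fold change of -0.24 ± 0.077 (SE), adjusted p = 0.0221 in males and -0.22 ± 0.079 (SE), adjusted p = 0.0609 in females. With surrogate variables Kcnj2 passed in females too, at -0.24 with an adjusted p of 0.0121. Kcnj8 and Kcnj11 code for the pores of the ATP-sensitive channels of vessels and of neurons. Kcnj8 was low, from 0.442 to 3.80 (median 1.57) in adolescent males and from 0.305 to 2.03 (median 1.02) in adult males in CPM, and fell in males at -0.52 ± 0.17 (SE), adjusted p = 0.0275, while females had -0.48 ± 0.18 (SE), adjusted p = 0.0671. The male call was lost without the filter on low counts, at -0.52 with an adjusted p of 0.0506, and with surrogate variables, at -0.41 with an adjusted p of 0.0694. In females Kcnj8 passed without the 5 libraries that stood apart, at -0.54 with an adjusted p of 0.037. With surrogate variables it passed in females at -0.48 with an adjusted p of 0.0317. Kcnj11 rose in males at 0.15 ± 0.047 (SE), adjusted p = 0.0198, a call that was lost with surrogate variables at 0.09 and an adjusted p of 0.0767. The regulatory subunit of the vascular channel, Abcc9, was lower in adult males at -0.34 ± 0.096 (SE, adjusted p = 0.00751), and it belongs to the mural list. Of the vessel markers, 5 of 6 endothelial and 2 of 6 mural ones were lower in adult males. In females 1 of 6 endothelial and 0 of 6 mural markers passed. The mural sum ran from 56.5 to 203 CPM in adolescent males and from 37.2 to 179.9 in adult males, and its part in the Kcnj8 value was not tested.

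Kcnj15 had the largest fold change, 1.24 ± 0.32 (SE), adjusted p = 0.00588 in females, and the call was lost without 1 library. It ran from 0 to 1.87 (median 0.535) in adolescent females and from 0.132 to 48.7 (median 1.02) in adult females in CPM, and the highest value was that of Female_FCL_AAE_Adult replicate 1, which carried olfactory genes. Without that library the log2 fold change was 0.72 with an adjusted p of 0.105. Within single treatments the female value was 3.86 in the treatment that holds this library, FCL with AAE, and from -0.01 to 1.29 in the other 5, of which 4 were above 0. The G protein-gated members Kcnj3, Kcnj6 and Kcnj9, which answer to neurotransmitter receptors, and Kcnj5 passed in neither sex.

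A pair of acid-sensitive leak channels of the Kcnk family moved in opposite directions in males. Kcnk9 (chr7:106316783-106362452, minus strand) fell in both sexes. It ran from 51.8 to 92.6 (median 72.7) in adolescent females and from 31.6 to 78.2 (median 64.6) in adult females in CPM. Among males the values ran from 55.3 to 86.01 (median 72.6) in adolescent males and from 41.4 to 76.6 (median 67.1) in adult males. The groups overlapped, with 28 of 35 and 27 of 36 adult libraries below the adolescent median, and the log2 fold change was -0.18 ± 0.049 (SE), adjusted p = 0.00652 in females and -0.15 ± 0.047 (SE), adjusted p = 0.0168 in males. Kcnk3, its close relative, rose in males at 0.24 ± 0.064 (SE), adjusted p = 0.00485 and had 0.07 ± 0.067 (SE), adjusted p = 0.606 in females. Per 100 counts of Kcnk9 there were medians of 12.02 and 14.97 counts of Kcnk3 in adolescent and adult females and of 11.3 and 14.4 in males, over ranges that overlapped. The median log2 fold change of the 13 leak channels tested was -0.12 in females and -0.11 in males.

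Kcne5 (chrX:110727234-110727849, minus strand), a small membrane subunit on the X chromosome, fell in both sexes. It ran from 1.35 to 7.02 (median 3.78) in adolescent females and from 1.33 to 4.88 (median 2.99) in adult females in CPM. In males it ran from 2.35 to 8.93 (median 4.01) in adolescent males and from 1.51 to 7.32 (median 3.01) in adult males. The groups overlapped, with 29 of 35 and 26 of 36 adults below the adolescent median. The log2 fold change was -0.42 ± 0.11 (SE), adjusted p = 0.00595 in females and -0.33 ± 0.11 (SE), adjusted p = 0.0247 in males, and the male call was lost without Male_PAE_VEH_Adult replicate 4, at -0.30 with an adjusted p of 0.053. The calcium-activated Kcnn and Kcnm genes, 4 and 5 tested, and the sodium-activated Kcnt genes had 0 calls in either sex. Of 12 auxiliary genes 11 were tested, and 2 rose and 1 fell in females while 5 rose and 1 fell in males.

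Averaged over both sexes, a comparison added after the data were examined, 35 of 87 members passed, 16 higher and 19 lower, against 22.2% of all genes. Of all genes, 3353 passed in either sex and 4475 with both sexes averaged, 2345 higher and 2130 lower. Among the members 24 passed in either sex. Of the 35 members, 13 had passed in neither sex alone, and 11 of these were lower in adults. The matching count for all genes was not made, so these numbers are a description only. The 11 include leak channels that respond to stretch, Kcnk2 at -0.11 ± 0.034 (adjusted p = 0.00634) and Kcnk4 at -0.12 ± 0.039 (adjusted p = 0.0114). Kcnj4 had -0.13 ± 0.040 (adjusted p = 0.00927), Kcnh7 -0.11 ± 0.034 (adjusted p = 0.0122) and Kcnq3 -0.08 ± 0.029 (adjusted p = 0.0262). Kcna1 and Kcns1 were the 2 of the 13 that were higher in adults, at 0.10 ± 0.034 and 0.19 ± 0.072. In the authors' deposited table of adolescents against adults, 36 members had an adjusted p under 0.05, against 23.7% of the genes tested here. These are the same libraries, and the 36 held all 35 called here with both sexes averaged.

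Within single treatments the age effect of the members called in both sexes mostly kept its sign. These members were called from the average over the same treatments, so the signs are a description and no separate check. Kcnd3 went from 0.02 to 0.24 over the 6 treatments in females and from 0.11 to 0.31 over the 6 in males. Kcnk9 went from -0.32 to -0.03 over the 6 treatments in females and from -0.29 to -0.06 over the 6 in males. Kcnab2 also had 1 sign in all 12 combinations of sex and treatment. Values of the other sign were found for Kcnc1, at -0.04 in 1 male treatment, Kcne5, at 0.12 in 1 male treatment, and for Kcnab3, with a value just below 0 in 1 female and of -0.02 in 1 male treatment. Kcnj16 went from -0.21 to 0.45 over the 6 treatments in females and from 0.02 to 0.89 over the 6 in males.

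**Figure D4:**
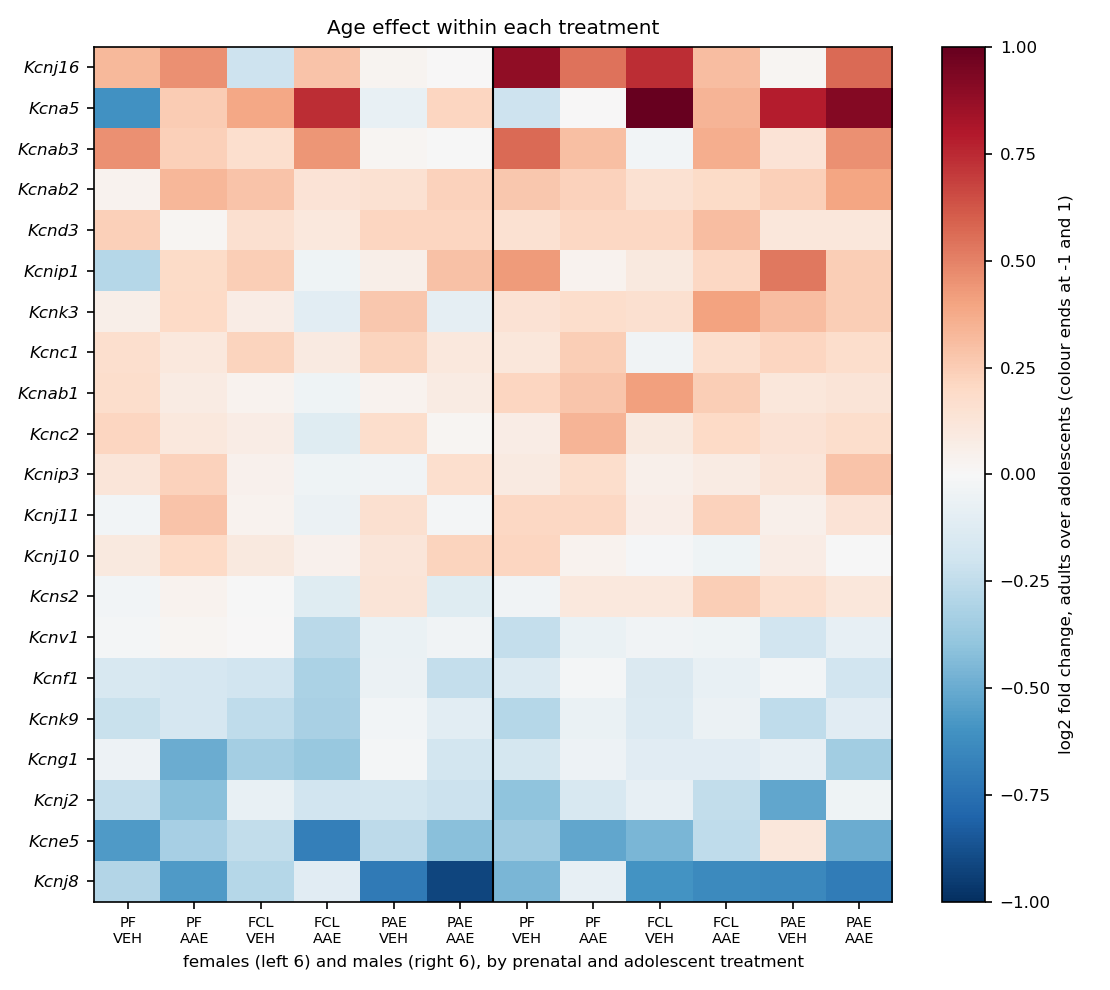
Log2 fold change of adults over adolescents within each of the 12 combinations of sex, prenatal and adolescent treatment for 21 members called in either sex; Kcnj15, which rested on 1 library, is left out, and colours end at -1 and 1. Kcnk9 is blue in all 12 columns and Kcnd3 and Kcnab2 are red in all 12.

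Of 31 partner genes tested, which code for channel partners, anchors and related hyperpolarisation-activated channels, 1 was higher and 2 lower in adult females and 2 higher and 2 lower in adult males. These shares, 9.68% in females and 12.9% in males, were near the 9.02% and 13.1% of all genes. Dpp6, a membrane partner of Kcnd channels, was lower in adults of both sexes, at -0.08 ± 0.025 (SE, adjusted p = 0.0239) and -0.07 ± 0.024 (adjusted p = 0.0479). Dlg1, a scaffold protein, was higher in adult males at 0.10 ± 0.027 (adjusted p = 0.00745), as was Vapb, a binding partner of Kcnb channels, at 0.12 ± 0.027 (adjusted p = 0.000987). Cntn2, an axonal adhesion protein that holds Kcna channels beside the node, was higher in adult females at 0.26 ± 0.083 (adjusted p = 0.0338). Calm3, 1 of the calmodulin genes that serve Kcnq and Kcnn channels, was lower in adult females at -0.13 ± 0.035 (adjusted p = 0.0111).

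Females were compared with males at each age. In adolescents 0 of 87 members passed, against 0.119% of all genes, 7 had an unadjusted p under 0.05 against 5.91% of all genes, and DESeq2 called 0. In adults 0 passed, against 0.0844%, 5 had an unadjusted p under 0.05 against 4.73%, and DESeq2 called 0. The member with the smallest p was Kcnj16 in adolescents, with a median of 11.1 CPM in 34 females and 8.13 in 39 males and a log2 difference of 0.34 ± 0.089 (adjusted p = 0.177). In the control treatments alone that difference was 0.70 ± 0.15 and passed (adjusted p = 0.00952). Kcnk6, a leak channel, followed with 0.49 ± 0.16 (adjusted p = 0.59). In adults the smallest p belonged to Kcnj15, at 0.98 ± 0.32 (adjusted p = 0.732), and to Kcnv2, at -1.36 ± 0.49 (adjusted p = 0.962), which had a count in 82 libraries.

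The study's exposures were compared within each sex and age, where 82 members could be tested, and no member passed in any of the 12 comparisons. Both prenatal comparisons use the same PAE libraries and are not independent of each other. PAE against PF gave 0 calls in adolescent females (0.0% of all genes), with 2 members at an unadjusted p under 0.05 against 4.59% of all genes. In adult females there were 0 calls (0.0%) and 7 unadjusted, against 5.26%. Adolescent males had 0 (0.0%) and 8 unadjusted, against 4.59%, and adult males 0 (0.0%) and 0 unadjusted, against 4.82%. DESeq2 called 0 members in each of these 4 comparisons.

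The members with the smallest p of each comparison are given as values that did not pass. Kcnip3 and Kcns1 are given for adolescent females and Kcnj16 and Kcnj14 for adult females. Kcna5 and Kcnj11 are given for adolescent males and Kcne4 and Kcnc4 for adult males. Kcnip3 ran from 77.7 to 114.6 CPM (median 98.7) in 12 PF libraries and from 100.2 to 134.8 (median 105.2) in 10 PAE libraries, a log2 difference of 0.13 ± 0.057 (SE; adjusted p = 0.961). Kcns1 ran from 9.03 to 19.8 CPM (median 12.1) in 12 PF libraries and from 10.4 to 20.6 (median 15.7) in 10 PAE libraries, a log2 difference of 0.33 ± 0.16 (SE; adjusted p = 0.961). Kcnj16 ran from 10.5 to 17.5 CPM (median 15.03) in 12 PF libraries and from 7.42 to 12.3 (median 11.03) in 11 PAE libraries, a log2 difference of -0.49 ± 0.13 (SE; adjusted p = 0.5). In each of these pairs the groups overlapped. Kcnj14 ran from 2.86 to 11.3 CPM (median 8.81) in 12 PF libraries and from 8.53 to 14.4 (median 11.6) in 11 PAE libraries, a log2 difference of 0.42 ± 0.12 (SE; adjusted p = 0.569). Kcna5 ran from 1.35 to 13.6 CPM (median 2.12) in 13 PF libraries and from 0.830 to 2.83 (median 1.61) in 13 PAE libraries, a log2 difference of -0.99 ± 0.27 (SE; adjusted p = 0.62). Kcnj11 ran from 27.9 to 40.7 CPM (median 37.7) in 13 PF libraries and from 32.6 to 53.1 (median 42.9) in 13 PAE libraries, a log2 difference of 0.20 ± 0.065 (SE; adjusted p = 0.914). The highest PF value of Kcna5 was that of Male_PF_VEH_Adolescent replicate 6, 1 of the libraries with olfactory genes. Kcne4 ran from 0.793 to 10.3 CPM (median 2.43) in 13 PF libraries and from 0.800 to 2.99 (median 1.65) in 10 PAE libraries, a log2 difference of -0.72 ± 0.36 (SE; adjusted p = 0.944). Kcnc4 ran from 95.5 to 126.4 CPM (median 118.2) in 13 PF libraries and from 115.7 to 132.3 (median 125.5) in 10 PAE libraries, a log2 difference of 0.09 ± 0.051 (SE; adjusted p = 0.944). Kcne4 and Kcnc4 had overlapping groups as well.

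PAE against FCL gave 0 calls in adolescent females (0.0%), with 3 unadjusted against 4.32% of all genes, and 0 in adult females (0.0%), with 9 unadjusted against 6.42%. It gave 0 in adolescent males (0.0%), with 6 unadjusted against 5.66%, and 0 in adult males (0.0%), with 2 unadjusted against 3.97%. DESeq2 called 0 in each. Kcne2 and Kcna3 are given for adolescent females and Kcnk1 and Kcnj15 for adult females. Kcnj13 and Kcnd3 are given for adolescent males and Kcnc4 and Kcnd2 for adult males. Kcne2 ran from 1.40 to 10.3 CPM (median 3.54) in 12 FCL libraries and from 1.06 to 3.91 (median 2.36) in 10 PAE libraries, a log2 difference of -0.70 ± 0.23 (SE; adjusted p = 1). Kcna3 ran from 10.4 to 18.3 CPM (median 16.7) in 12 FCL libraries and from 7.50 to 17.4 (median 13.3) in 10 PAE libraries, a log2 difference of -0.26 ± 0.095 (SE; adjusted p = 1). Kcne2, an auxiliary subunit, and Kcnj13 are known from choroid plexus, the tissue that makes cerebrospinal fluid. Kcnj13 ran from 0.852 to 11.9 CPM (median 5.56) in 13 FCL libraries and from 0.418 to 8.22 (median 2.98) in 13 PAE libraries, a log2 difference of -1.20 ± 0.36 (SE; adjusted p = 0.79). Kcnk1 ran from 72.5 to 107.2 CPM (median 85.5) in 12 FCL libraries and from 91.6 to 114.6 (median 101.1) in 11 PAE libraries, a log2 difference of 0.21 ± 0.061 (SE; adjusted p = 0.443). Kcnj15 ran from 0.260 to 48.7 CPM (median 1.14) in 12 FCL libraries and from 0.226 to 1.91 (median 0.603) in 11 PAE libraries, a log2 difference of -2.16 ± 0.64 (SE; adjusted p = 0.446). The FCL maximum of Kcnj15 was again Female_FCL_AAE_Adult replicate 1. Kcnd3 ran from 49.6 to 75.2 CPM (median 61.3) in 13 FCL libraries and from 60.3 to 76.2 (median 68.99) in 13 PAE libraries, a log2 difference of 0.17 ± 0.055 (SE; adjusted p = 0.79). Kcnc4 ran from 90.5 to 136.6 CPM (median 113.3) in 13 FCL libraries and from 115.7 to 132.3 (median 125.5) in 10 PAE libraries, a log2 difference of 0.14 ± 0.051 (SE; adjusted p = 0.999). Kcnd2 ran from 101.6 to 123.97 CPM (median 106.9) in 13 FCL libraries and from 89.98 to 110.6 (median 104.6) in 10 PAE libraries, a log2 difference of -0.10 ± 0.049 (SE; adjusted p = 0.999). These pairs of groups overlapped as well.

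AAE against VEH gave 0 calls in adolescent females (0.0%), with 3 unadjusted against 3.14% of all genes. In adult females there were 0 (0.0%) and 11 unadjusted, against 7.73%, the most of the 12 comparisons. Adolescent males had 0 (0.0%) and 2 unadjusted, against 4.89%, and adult males 0 (0.0%) and 5 unadjusted, against 3.42%. DESeq2 called 0 in each. Kcnk2 and Kcnn4 are given for adolescent females and Kcnq5 and Kcnj3 for adult females. Kcnq1 and Kcnh6 are given for adolescent males and Kcnj9 for adult males. Kcnk2 ran from 38.7 to 53.8 CPM (median 46.7) in 17 VEH libraries and from 30.3 to 49.1 (median 40.7) in 17 AAE libraries, a log2 difference of -0.18 ± 0.052 (SE; adjusted p = 0.999). Kcnn4 ran from 0.292 to 1.72 CPM (median 0.736) in 17 VEH libraries and from 0.135 to 0.901 (median 0.447) in 17 AAE libraries, a log2 difference of -0.69 ± 0.27 (SE; adjusted p = 0.999). Kcnn4, the intermediate-conductance calcium-activated channel of blood and immune cells, was low in every group. Kcnq5 ran from 178.2 to 267 CPM (median 211) in 18 VEH libraries and from 132.9 to 234 (median 191.1) in 17 AAE libraries, a log2 difference of -0.17 ± 0.052 (SE; adjusted p = 0.507). Kcnj3 ran from 112.6 to 206 CPM (median 135.96) in 18 VEH libraries and from 88.5 to 145.9 (median 121.8) in 17 AAE libraries, a log2 difference of -0.17 ± 0.055 (SE; adjusted p = 0.507). Both are neuronal channels under the control of neurotransmitter receptors, and their groups overlapped. Kcnq1 ran from 3.58 to 11.5 CPM (median 6.63) in 21 VEH libraries and from 2.37 to 8.37 (median 5.28) in 18 AAE libraries, a log2 difference of -0.42 ± 0.14 (SE; adjusted p = 0.95). Kcnh6 ran from 1.05 to 3.83 CPM (median 2.78) in 21 VEH libraries and from 1.62 to 4.80 (median 3.22) in 18 AAE libraries, a log2 difference of 0.32 ± 0.13 (SE; adjusted p = 0.95). Neither is abundant in this tissue, with median FPKM of 0.171 and 0.622. Kcnj9 ran from 26.3 to 45.9 CPM (median 34.4) in 16 VEH libraries and from 35.7 to 46.3 (median 40.96) in 20 AAE libraries, a log2 difference of 0.17 ± 0.060 (SE; adjusted p = 1). In adult females after AAE the median log2 difference of the 82 members was -0.06, and that of all genes was 0.02. The AAE side holds Female_FCL_AAE_Adult replicate 1, a library with olfactory genes. The VEH side holds Female_PF_VEH_Adult replicate 6, the library with the fewest genes detected. The part of these libraries in the median was not tested.

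**Figure D5:**
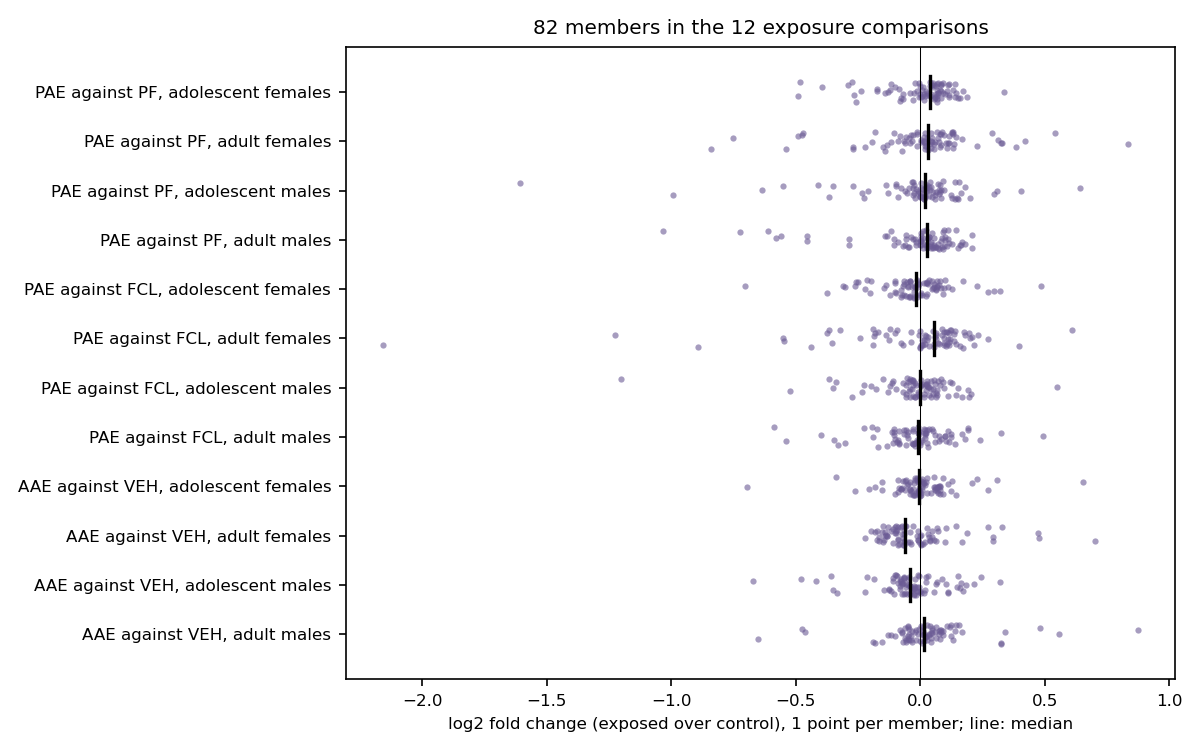
Log2 difference of each of the 82 members tested in the 12 exposure comparisons, 1 point per member with a line at the median. Medians lie between -0.06 and 0.05, and the point farthest left is Kcnj15 at -2.16 for PAE against FCL in adult females.

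How large a difference the 95% intervals of these comparisons still held was read from the 28 members with a median FPKM of at least 10. Members at lower levels are not covered by these bounds, and Kcnj15 above had a standard error of 0.64. The standard errors of the 28 had medians of 0.052 to 0.088 over the 12 comparisons. The farthest bound of any of the 95% intervals of the 28 lay 0.29 from 0 on the log2 scale at the least, for PAE against PF in adolescent females and AAE against VEH in adult males. At the most it lay 0.54 from 0, for PAE against PF in adult females. Over all sexes and ages, 0 of 87 members passed for PAE against PF (0.0149% of all genes; 10 unadjusted against 7.61%), for PAE against FCL (0.0149%; 6 against 5.29%) and for AAE against VEH (0.00497%; 9 against 7.57%), and DESeq2 called 0. In those comparisons the farthest bound was 0.29, 0.16 and 0.14. The members with the smallest p were Kcnj15 at -0.85 ± 0.28 (adjusted p = 0.438) and Kcnj12 at 0.12 ± 0.041 (adjusted p = 0.5) for PAE against PF. The PF side holds Male_PF_VEH_Adolescent replicate 6, with 22.8 CPM of Kcnj15 against a median of 0.642 over all libraries, and without the 5 libraries that stood apart the Kcnj15 value was -0.39 (adjusted p = 0.72). For PAE against FCL they were Kcnd3 at 0.10 ± 0.030 (adjusted p = 0.514) and Kcna5 at -0.37 ± 0.14 (adjusted p = 0.821). For AAE against VEH they were Kcnh1 at -0.07 ± 0.027 (adjusted p = 0.479) and Kcna4, an A-type channel, at -0.08 ± 0.031 (adjusted p = 0.513). In the authors' deposited table, 0 members had an adjusted p under 0.05 in the prenatal, adolescent or sex comparisons. Of all genes tested here, 0.0% to 0.0248% did in the prenatal and adolescent comparisons and 0.124% in the sex comparison.

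Differences between the sexes in these exposures were tested as well, and 0 of 87 members passed in each of 6 comparisons, as did 0.0% of all genes and 0 members in DESeq2. For PAE against PF, 4 members in adolescents and 3 in adults had an unadjusted p under 0.05, against 3.17% and 4.95% of all genes. For PAE against FCL these were 1 and 6, against 3.65% and 4.88%, and for AAE against VEH 5 and 10, against 2.99% and 5.25%. In adults after AAE, the smallest p belonged to Kcnj3, at -0.21 ± 0.071 (adjusted p = 0.879) for females minus males, and to Kcnc2, at -0.22 ± 0.079 (adjusted p = 0.887). For PAE against FCL in adults it belonged to Kcnk1, at 0.23 ± 0.080 (adjusted p = 0.962), and to Kcnc4, at -0.33 ± 0.12 (adjusted p = 0.962). For PAE against PF in adults Kcnn4 had 1.41 ± 0.51 (adjusted p = 0.969) and Kcng1 0.41 ± 0.16 (adjusted p = 0.969). Among adolescents, Kcna5 had 1.07 ± 0.40 (adjusted p = 1) and Kcnj10 -0.25 ± 0.099 (adjusted p = 1) for PAE against PF. Kcnj14 had 0.45 ± 0.17 (adjusted p = 1) and Kcnip1 0.36 ± 0.19 (adjusted p = 1) for PAE against FCL. For AAE against VEH, Kcnq1 had 0.63 ± 0.22 (adjusted p = 1) and Kcnip1 -0.37 ± 0.15 (adjusted p = 1).

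The 2 libraries with olfactory genes held the 2 highest values of 8 of the 93 members, among them Kcnmb3, Kcnj15, Kcnj1, Kcnmb2, Kcnh4 and Kcnj5. Kcnmb3, an auxiliary subunit of the large-conductance channel, had 36.6 CPM in Male_PF_VEH_Adolescent replicate 6 and 21.4 in Female_FCL_AAE_Adult replicate 1, against a median of 0 over all libraries and at most 1.92 in any other library. Kcnj5 had 18.6 and 25.5 CPM in them against a median of 1.68, and Kcnh4 had 50.5 and 42.7 against 12.4. In the fit of all libraries together Kcnmb3 passed for PAE against PF in adolescent males, at -4.22 ± 0.92 (adjusted p = 0.00603). The PF side of that comparison holds the library with 36.6 CPM. Kcnmb3 was chosen after its values were seen, and it did not reach the filter in the fit of that sex and age alone. The members known from choroid plexus were highest in other libraries: Kcnj13 was highest in Male_PF_AAE_Adult replicate 4, at 28.1 CPM against a median of 3.73, and Kcne2 in Male_FCL_VEH_Adult replicate 2, at 13.4 CPM against 2.41.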

How the data were processed

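RNA-seq libraries of the anterior cingulate cortex were analysed from the table the authors deposited, which holds a raw count and an FPKM value (count scaled to gene length and library size) per gene and library. It also holds the authors' comparisons, with a log2 fold change, a p-value and an adjusted p-value in the deposited columns. Per the submitters' processing notes, fastp and HISAT2 2.0.5 were used. Which counter and which build were used is not stated in the labels, but the deposited coordinates of all 93 members equal those of RefSeq's GRCr8. Counts were tested with edgeR 4.0.16 (R 4.3.3; quasi-likelihood test, TMM scaling, filterByExpr with a minimum count of 10, robust fit, Benjamini-Hochberg adjustment over all genes tested, threshold 0.05). Age and sex were tested in 1 fit of 144 libraries in 24 groups, exposures within each sex and age. A standard error is the log2 fold change divided by the root of the F statistic. CPM of members are TMM-scaled, and marker sums are scaled to the library's total count alone. Filtering left 87 members in the fit of all libraries, and Kcnk7, Kcna7, Kcnj1, Kcnu1, Kcne1 and Kcna10 were not tested.

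Alternatives were DESeq2 1.42.0, RLE scaling, no filter, 2 surrogate variables (sva 3.50.0), control treatments only, and the 5 libraries that stood apart left out together. Each library of the smaller groups was also left out alone, as was each of the 5 for age and sex. On simulated counts for the age comparison in females (19908 genes), 46.3% of genes changed 1.25-fold, 76.1% of those changed 1.5-fold and 81.8% of those changed 2-fold were called. Of the 144 genes called there, 8 were unchanged ones. Changes under 1.25-fold, which most of the called members had, were not simulated. Members and lists were chosen with earlier results of these data known. Named are up to 15 called members in each direction of an age or sex comparison, the 2 members with the smallest p where none was called, the highest member of each subfamily and called partner genes, up to 6 per age comparison. The labels give 1 batch date for all libraries. Results of some members are not reported here.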

Additional observations from a re-analysis of the deposited data

Results flagged for a closer look

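In 2 of 24 groups tested, 1 library lay far from the rest of its group in the summed level of all potassium channel genes. Chance sets a library apart in about 1 of 20 groups. Female_FCL_AAE_Adolescent replicate 2 was the highest of 6, at 7336 CPM against 6768 for the nearest library and a group median of 6602. Female_FCL_VEH_Adult replicate 5 was the lowest of 6, at 5983 CPM against 6730.1 for the nearest and a median of 6797. Neither is among the 5 libraries described as standing apart.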

How the results depend on the processing

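None of the 32 age calls within a sex changed sign under any alternative run. DESeq2 and RLE scaling kept 31 of the 32, leaving out the 5 libraries 30, surrogate variables 29 and no filter 28, and the control treatments, with fewer libraries, kept 5. The count in females was 20 with surrogate variables and 1 in the control treatments. In males the control treatments gave 5, and with both sexes averaged 12. Leaving out 1 library at a time gave 11 to 13 members in females, 17 to 23 in males and 31 to 36 with both sexes averaged. These 24 fits covered only the libraries of the smaller groups, all of them PAE groups, and the 5 that stood apart. Most PF and FCL libraries were never left out. In the sex comparisons and in the exposure comparisons outside adolescent males it gave 0 to 0. For the 3 exposure comparisons in adolescent males it was not run, as for exposures only libraries of the smaller groups were left out. Females against males in adolescents had 1 call in the control treatments, Kcnj16. PAE against PF in adolescent males had 1 in the fit of all libraries together, Kcnmb3. The cause was not tested. Without the filter on low counts Kcnj8 in males had an adjusted p of 0.0506 and with surrogate variables 0.0694. By counts per kilobase with TMM scaling, 29 members in place of 28 reached a level of 10. Low members limit precision: 5 members had a median count of 0. No paired analysis was possible because the labels give no pairing, litter or animal, and the replicate numbers only name libraries.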
